A study of Mus musculus with 5 samples.

Results

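The genes described here encode the plasminogen activators, their receptor and inhibitors, and the surface proteins that start or restrain coagulation: Plaur, Plau, Plat, Serpine2, Serpini1, Anxa2, Thbd and F3. They were chosen by symbol from the rows of the deposited table, without use of measured values, and are 8 of its 51912 genes. All 8 had an adjusted p-value, as did 17420 genes in all. Gene expression had been measured by RNA sequencing of polyadenylated RNA in C57BL/6 mice, in 2 libraries after a sham operation and 3 after an ischemic stroke. Stroke was made by a silicon-coated filament that blocked the middle cerebral artery for 30 minutes. Only mice with a drop in cerebral blood flow of 80% or more were used, and a motor score was taken at 24 hours. The labels give both groups the same strain and name no genetic change, and the age of the mice, the tissue, the hour of sampling and the steps of the sham operation are not stated in the sources used here.

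Plasmin is the protease that dissolves fibrin. It is cut from plasminogen by tissue plasminogen activator (Plat) or by urokinase (Plau), which the urokinase receptor (Plaur) holds at the cell surface. The serpins protease nexin 1 (Serpine2) and neuroserpin (Serpini1) trap these activators, and annexin A2 with its partner S100A10 gathers plasminogen and its activator on membranes. Tissue factor (F3) starts coagulation when it meets blood, and thrombomodulin (Thbd) turns thrombin towards protein C and away from fibrin. In brain, tissue plasminogen activator is also made by neurons, and recombinant tissue plasminogen activator is a treatment for ischemic stroke.

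The authors' deposited table holds no values per library, so whole reads per library were rebuilt from the mean, the fold change and its standard error. This gave a set of 5 read counts for 6 of the 8 genes, and none was sought for Serpine2 and Serpini1, whose means were too high. Size factors were 1.16, 1.13 and 1.12 in the stroke libraries, here called A, B and C, and 0.945 and 0.734 in the sham libraries, here called the deeper and the shallower. Nothing ties these libraries to the replicate numbers of the labels. The labels do not say that libraries came from separate mice, so p-values measure only the spread between these libraries, which may be technical. All 6 neuronal markers on a list that includes Snap25, Syt1 and Rbfox3 had reads, with mean normalized counts between 5689 and 65803. Both sham libraries stood apart. In the shallower, 532 of 6227 recovered genes had at least 20 normalized counts and at least 5 times the highest of the other libraries, against 50 in the deeper and 1, 1 and 15 in stroke libraries A, B and C, a comparison chosen after the values were seen. Of the 532, 397 were predicted genes with a Gm symbol and 21 were histone genes, whose transcripts mostly lack a poly(A) tail. Hist1h4c, a histone H4 gene, had 441 in the shallower sham library and 0 to 4.23 elsewhere, and Rny3, a small noncoding RNA, had 681 against 1.06 to 18.2. The deeper sham library was high in choroid plexus transcripts, described with F5, but not in these alone. The neuropeptide genes Avp and Hcrt had 328 and 218 there, against 0.896 to 6.19 and 0 to 1.79 elsewhere. The globin gene Hba-a1 had 419 against 8.06 to 77.7, and these 3 genes were picked out after their values were seen. Of 137 genes called lower in all, 99 had recovered reads, and in 92 of those a single sham library held at least 80% of the sham reads. Fold changes are read as stroke over sham, because genes with a single read had a positive fold change in 3 of the libraries and stroke has 3. In bulk RNA, fewer cells of a type and less RNA per cell cannot be told apart.

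Plaur alone rose after stroke, at an adjusted p below 0.05 over all tested genes. The other 7 genes did not pass in either direction, and none fell. Of all tested genes 0.775% were called higher and 1.56% were called in either direction. The median log2 fold change of the 8 genes was 0.20, against -0.02 over all tested genes, and 7 of 8 values were positive, against 47.2% of all tested genes. The negative one, Serpine2, came to 0.01 when values were re-centred on the median of all tested genes. Before adjustment Plaur and Thbd had a p below 0.05 in the higher direction, as had 4.84% of all tested genes. Among the 6 genes with reads per library, Plaur and Thbd had every stroke value above both sham values and the other 4 overlapped between groups. Of 6205 tested genes with recovered reads, most of them with a mean under 150, 9.8% lay above and 16.8% below in that way.

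**Figure D1:**
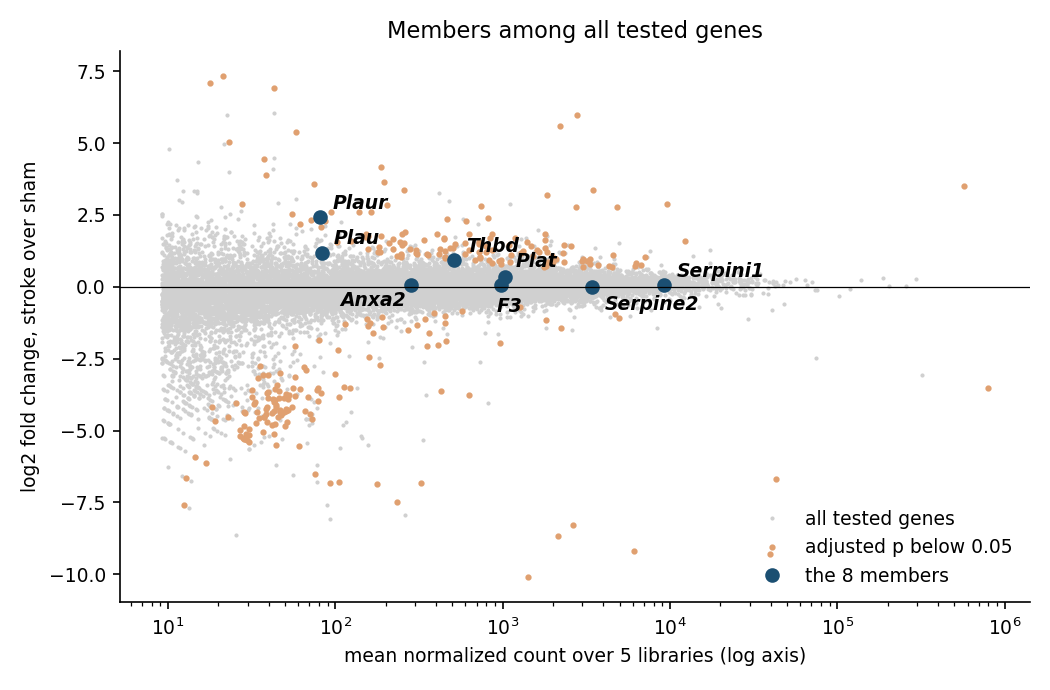
Log2 fold change of stroke over sham against the mean normalized count over the 5 libraries (log axis) for all 17420 tested genes (grey), those with an adjusted p below 0.05 (orange) and the 8 genes (blue, named). Plaur is the only one of the 8 among the called genes, at a mean of 81.0 and a log2 fold change of 2.42, and Serpini1 has the highest mean of the 8, 9236.

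The urokinase receptor gene was the one called. Plaur (ENSMUSG00000046223) lies on the plus strand of chromosome 7 at 24462484 to 24475968 in GRCm38, and encodes a membrane-anchored receptor that binds urokinase and pairs with integrins on migrating cells. Its normalized count was 85.6, 146 and 128 in stroke libraries A, B and C, 12.7 in the deeper sham library and 32.7 in the shallower. Every stroke library was thus more than 2 times as high as either sham library, and the groups did not overlap. The stroke mean was 120 ± 31.0 (SD, n = 3). The sham values rested on 12 and 24 reads and the stroke values on 99, 165 and 143. In the authors' deposited table its log2 fold change was 2.42 (SE 0.54, adjusted p = 0.0022), or 5.36-fold with a 95% Wald interval of 2.58 to 11.2. That p-value ranked 57 among tested genes, and 99.7% of them had a lower fold change.

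The size of the Plaur change depended on the sham libraries, which differed 2.57-fold from each other. On the log2(normalized reads + 1) scale the difference between group means was 2.46, or 5.49-fold. It came to 3.50-fold without the deeper sham library and to 8.61-fold without the shallower, and to between 4.92-fold and 6.41-fold without each stroke library in turn. The part of what set the sham libraries apart in these values was not tested. With 3 libraries against 2 the exact two-sided permutation test cannot go below p = 0.1, which is the value Plaur gave. In limma with trend and robust variance on the recovered reads Plaur did not pass (adjusted p = 0.528), and 0 of 6205 genes did, with 509 at an unadjusted p below 0.05, where the Wald test had called 272 of 17420. Against a fold of 1.5 the Wald test also lost the call, with a Benjamini-Hochberg adjusted p of 0.159.

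**Figure D2:**
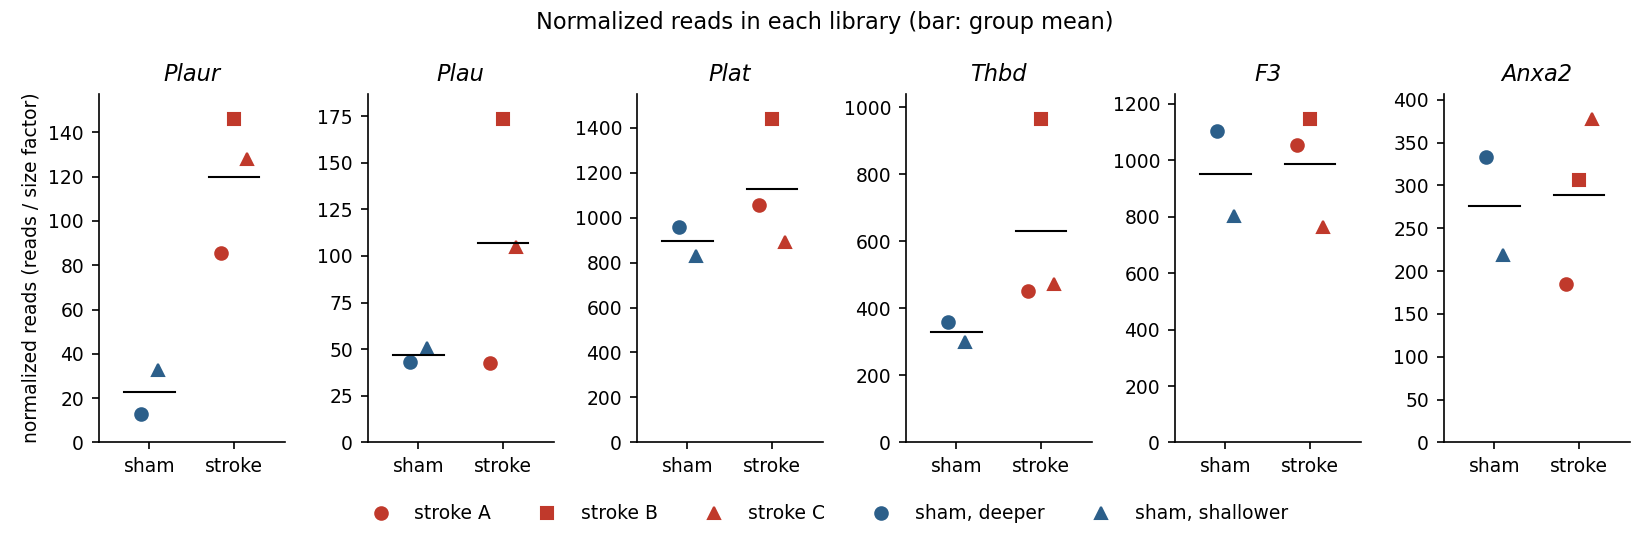
Normalized reads (reads divided by the size factor, linear axes from 0) in each library for the 6 genes with recovered reads, with sham libraries in blue, stroke libraries in red and a bar at each group mean. In Plaur and Thbd all 3 stroke points lie above both sham points, and stroke library B is the highest stroke point in every panel except that of Anxa2.

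The 250 bases before the start of Plaur are shown because that gene alone was called, and those before F3 because it shares a motif and was not called. Both come from RefSeq on GRCm38.p6, plus strand, written 5′ to 3′. Capitals mark matches to TGANTCA, the motif of AP-1, the Fos and Jun dimer, searched on both strands.
Plaur, chr7:24462233-24462482: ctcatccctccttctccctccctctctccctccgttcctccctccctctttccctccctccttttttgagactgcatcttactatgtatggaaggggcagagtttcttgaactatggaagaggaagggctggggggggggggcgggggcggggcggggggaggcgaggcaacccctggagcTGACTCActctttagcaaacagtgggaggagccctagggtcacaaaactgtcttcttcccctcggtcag
F3, chr3:121723287-121723536: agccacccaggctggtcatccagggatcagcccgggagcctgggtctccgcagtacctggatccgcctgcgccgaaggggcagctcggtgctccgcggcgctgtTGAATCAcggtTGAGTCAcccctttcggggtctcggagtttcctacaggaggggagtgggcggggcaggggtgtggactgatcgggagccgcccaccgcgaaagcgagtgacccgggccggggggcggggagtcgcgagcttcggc
Such windows were found for 5 of the 8 genes (Plaur, F3, Anxa2, Serpine2 and Serpini1). The Plaur window held 1 AP-1 match, TGACTCA, at 69 to 63 bases before the start. The F3 window held 2, at 146 to 140 and 135 to 129 bases before the start, and the Anxa2 window held 1, at 95 to 89. Serpine2 and Serpini1 had none. Of 32817 such windows over all genes, 6.75% held an AP-1 match. The SP1 motif GGGCGG was found in the windows of Plaur, F3, Anxa2 and Serpine2 and in 32.7% of all windows, and a loose NF-kB motif (GGG, any 5 bases, then CC, which can overlap the SP1 motif) in those of Plaur, F3, Serpine2 and Serpini1 and in 45.8% of all. TGACGTCA, the CRE motif, was in none of the 5 windows and in 1.55% of all. The TATAAA motif was found in the Anxa2 window alone of the 5 (12.4% of all windows), as was the hypoxia motif ACGTG (16.6%). Promoters with an AP-1 match thus belonged both to the called gene and to genes that were not called.

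Neither activator passed. Plau, urokinase (ENSMUSG00000021822, chromosome 14, 20836660 to 20843385, plus strand), had normalized counts of 42.4, 173 and 105 in stroke libraries A, B and C, against 43.4 and 50.4 in the deeper and shallower sham libraries. Library A lay below both sham libraries, while B and C lay above them, a 4.09-fold range within stroke. The log2 fold change of Plau in the authors' deposited table was 1.19 (SE 0.61, adjusted p = 0.486), with an interval of 0.992-fold to 5.24-fold that includes no change. The difference of recovered reads was 1.94-fold over all libraries. It came to 1.42-fold without stroke library B, 2.84-fold without A and 1.82-fold without C.

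Plat, tissue plasminogen activator (ENSMUSG00000031538, chromosome 8, 22757727 to 22782844, plus strand), had normalized counts of 1058, 1437 and 892 in stroke libraries A, B and C. Its sham values were 958 in the deeper and 831 in the shallower library, so the groups overlapped. A shifted mean also gave a set of reads for Plat in 1 of 6 trials, so these reads are not certain. None did in 6 trials for F3, too few to tell it from Plat, or in 20 trials for each of the other genes. The log2 value in the authors' deposited table was 0.34 (SE 0.28, adjusted p = 0.806), an interval of 0.865-fold to 1.84-fold. Whether Plaur and either activator differed in fold change was not tested.

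The inhibitors with the highest means did not pass. Serpine2, protease nexin 1, which glia and neurons secrete against thrombin and the activators (ENSMUSG00000026249, chromosome 1, 79794197 to 79861180, minus strand), had a mean normalized count of 3426. Its log2 fold change in the authors' deposited table was -0.01 (SE 0.27, adjusted p = 0.999), with an interval of 0.685-fold to 1.44-fold. Serpini1, neuroserpin, an inhibitor of tissue plasminogen activator secreted mainly by neurons (ENSMUSG00000027834, chromosome 3, 75557547 to 75643495, plus strand), had a mean of 9236. For Serpini1 the authors' deposited table gives a log2 value of 0.07 (SE 0.30, adjusted p = 0.988), with an interval of 0.693-fold to 1.59-fold. A gene model on the same strand, Gm37672, overlaps Serpini1 and had a mean of 18.0. Serpinb2, a serpin that inhibits urokinase and is not among the 8, had a mean of only 4.01 and no adjusted p.

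**Figure D3:**
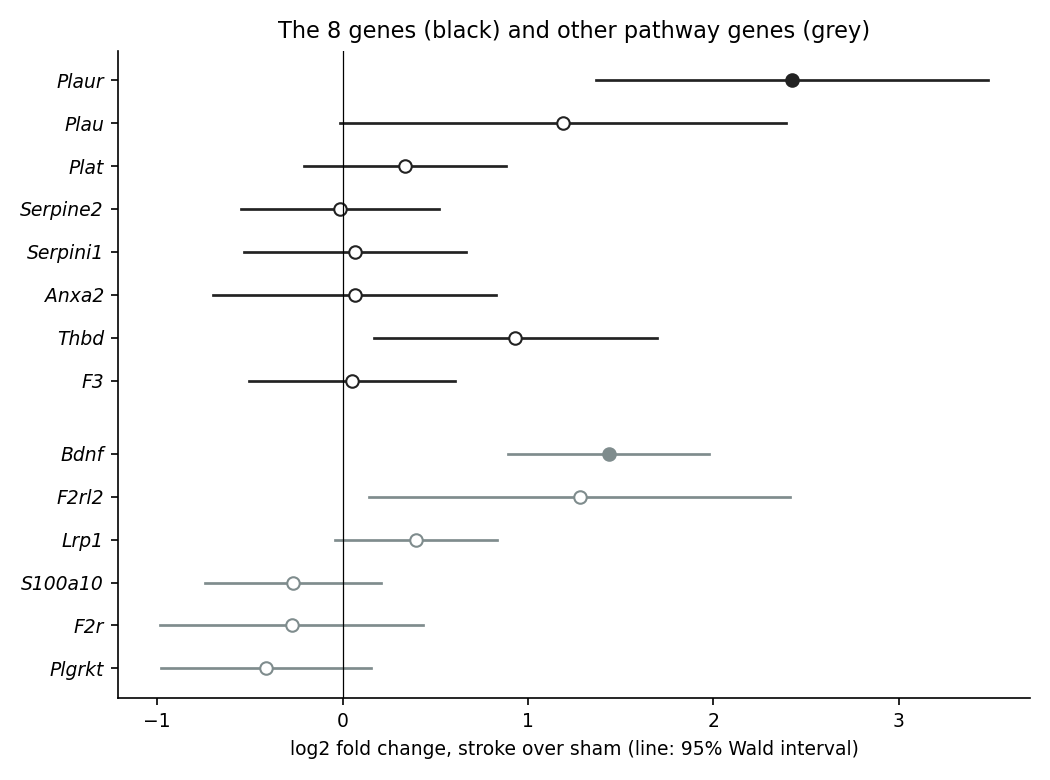
Log2 fold change of stroke over sham with its 95% Wald interval for the 8 genes (black) and for 6 other genes of the pathway named in the text (grey). Filled points passed an adjusted p of 0.05 and open points did not, and only Plaur and Bdnf are filled.

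The genes that gather plasminogen on the cell surface did not pass. Anxa2, annexin A2 (ENSMUSG00000032231, chromosome 9, 69453620 to 69491795, plus strand), had normalized counts of 185, 306 and 377 in stroke libraries A, B and C, against 333 and 219 in the deeper and shallower sham libraries. Stroke values reached from below both sham libraries to above both. The authors' deposited table put the log2 difference of Anxa2 at 0.06 (SE 0.39, adjusted p = 0.990), and the interval ran from 0.616-fold to 1.77-fold. The microRNA gene Mir3109 on the same strand (mean 0.273) and the antisense gene Gm16144, listed at 0, overlap Anxa2. S100a10, the partner of annexin A2, had 324, 312 and 332 against 424 and 352. Plgrkt, a plasminogen receptor of the plasma membrane, had 147, 165 and 193 against 223 and 225. In S100a10 and Plgrkt every stroke library was lower than either sham library, as in 16.8% of all tested genes with recovered reads. Their log2 fold changes were -0.27 (SE 0.24, adjusted p = 0.844) and -0.41 (SE 0.29, adjusted p = 0.730) by the authors' deposited table. None of 7 other annexin genes was called, where 1.56% of all tested genes were, and their log2 fold changes ran from -0.29 to 0.26.

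Neither the gene that starts coagulation (F3) nor the one that restrains it (Thbd) passed. Thbd, an endothelial receptor that turns thrombin into an activator of protein C (ENSMUSG00000074743, chromosome 2, 148404466 to 148408188, minus strand), had normalized counts of 453, 964 and 472 in stroke libraries A, B and C, against 359 and 301 in the deeper and shallower sham libraries. Every stroke value lay above both sham values, and B was 2.13 times as high as A. The log2 fold change of Thbd was 0.93 (SE 0.39, adjusted p = 0.284) by the authors' deposited table, with an interval of 1.12-fold to 3.24-fold before any adjustment. The difference of recovered reads was 1.80-fold over all libraries. It came to 1.41-fold without stroke library B, 2.05-fold without A and 2.01-fold without C. The exact two-sided permutation test gave p = 0.2 for Thbd.

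F3, tissue factor (ENSMUSG00000028128, chromosome 3, 121723537 to 121735048, plus strand), is carried by astrocytes and by cells around vessels. Its normalized counts were 1053, 1145 and 763 in stroke libraries A, B and C, and 1102 and 803 in the deeper and shallower sham libraries. The groups overlapped over nearly their whole range. For F3 the authors' deposited table lists a log2 difference of 0.05 (SE 0.28, adjusted p = 0.990), with an interval of 0.705-fold to 1.52-fold.

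Stroke library B was the highest of the stroke libraries for Plaur, Plau, Plat, Thbd and F3, that is for 5 of the 6 genes with recovered reads, a pattern seen only after the values were known. Library C was the highest for Anxa2. Among 4203 tested genes with recovered reads and a mean of at least 20, library B was the highest stroke library for 27.3%, and among 39 other genes of the pathway with recovered reads for 14. Markers of vessel cells and of monocytes were set beside this order. Cdh5, the cadherin of endothelial junctions, had 659, 1066 and 509 in stroke libraries A, B and C and 310 and 371 in sham. Pecam1, another endothelial junction protein, had 586, 700 and 649 against 409 and 525. Both were highest in B and had every stroke value above both sham values, though neither was called, and both were picked out after their values were seen. The other recovered endothelial markers, Cldn5, Ly6c1, Slco1a4 and Tek, were highest of the stroke libraries in C and overlapped between groups. Slco1a4, for example, had 571, 526 and 1294 in stroke libraries A, B and C, against 740 and 2179 in the deeper and shallower sham. Its mean of 1062 is above that of Plat, and no shifted mean was tried for it, so these reads are not certain either. Over the 6 of 7 endothelial markers with recovered reads the sum was highest in the shallower sham library instead, with 2748, 3388 and 3968 in stroke libraries A, B and C and 2385 and 4154 in sham. Of that 4154, Slco1a4 alone gave 2179, so the order of the sums leans on this gene. The sum leaves out Flt1, which had the highest mean of the list, 2294, and was not called (log2 fold change 0.62, SE 0.26). The summed markers of monocytes and macrophages were highest in B, with 339, 479 and 426 in stroke and 273 and 219 in sham, and the part of either cell type in the values of these genes was not tested.

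Levels were compared per kilobase of exon. Serpini1 was the highest, with a mean of 1268 normalized counts per kilobase, followed by Serpine2 with 413 and F3 with 385. Plat had 166, Thbd 137, Anxa2 76.2, Plau 35.0 and Plaur 30.9 normalized counts per kilobase. Neighbours in this order were the same in all 5 libraries for F3 over Plat, for Thbd over Anxa2 and for Anxa2 over Plau. Plat exceeded Thbd in 4 of 5 libraries and Plau exceeded Plaur in 3 of 5, so the order within these pairs did not hold beyond the spread between libraries. Serpini1 and Serpine2 have no values per library. Plaur ranged from 4.85 to 55.7 normalized counts per kilobase over the libraries, and it exceeded Plau in stroke libraries A and C (32.7 against 17.9 and 49.0 against 44.3).

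Other genes of the pathway were mostly uncalled, as were most of all tested genes. Of 73 listed, 69 had reads, 49 were tested, 1 was higher and none was lower, with a median log2 fold change of 0.11. Among all tested genes 0.775% were called higher and 1.56% in either direction. Bdnf, a neurotrophin whose precursor plasmin can cut, was the called gene, reaching 1268, 1009 and 896 normalized counts in stroke and 452 and 330 in sham. Its log2 fold change was 1.43 (SE 0.28, adjusted p = 0.00012) by the authors' deposited table. Of 39 tested genes of the list with recovered reads, 8 had every stroke value above the sham values and 3 had every one below, where 9.8% and 16.8% of all tested genes with recovered reads did so. Transcripts of the substrate and of the clot protein were almost absent. Plg, plasminogen, had a mean of 2.67, and the fibrinogen genes Fga, Fgb and Fgg had means of 1.34, 0.177 and 0.917, all too low for an adjusted p. Only RNA was measured, so these values do not tell whether the proteins were present.

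Receptors for the proteases gave no call. F2rl2, the protease-activated receptor PAR3, reached 70.9, 82.2 and 51.1 normalized counts in stroke and 15.9 and 40.9 in sham, a log2 difference of 1.28 (SE 0.58, adjusted p = 0.362 by the authors' deposited table). F2r, the thrombin receptor PAR1, differed by -0.28 on the log2 scale (SE 0.36, adjusted p = 0.923 by the authors' deposited table). F2rl1 and F2rl3 had means of 5.04 and 3.00 and no adjusted p. Lrp1, which clears activator and inhibitor complexes, Grin1, an NMDA receptor subunit, and Itgav, an integrin chain that binds vitronectin, had the highest means on the list. Their log2 fold changes were 0.40 (SE 0.22), 0.07 (SE 0.20) and 0.20 (SE 0.28) by the authors' deposited table, with adjusted p-values of 0.563, 0.980 and 0.928.

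Among 10 tested partners of the urokinase receptor none was called, where 1.56% of all tested genes were. The integrin genes Itga5, Itgam and Itgb2 had every stroke value above both sham values, as had 9.8% of all tested genes with recovered reads. They were picked out after their values were seen. Itgam, the alpha chain of the leukocyte integrin Mac-1, had 84.7, 103 and 85.1 in stroke against 70.9 and 19.1 in sham, the last on 14 reads. This symbol has 2 entries in the authors' deposited table, and only the first was used. Itgb2, its beta chain, had 124, 172 and 181 against 96.3 and 112. Their log2 fold changes were 1.00 (SE 0.58, adjusted p = 0.585) and 0.61 (SE 0.35, adjusted p = 0.571) by the authors' deposited table.

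Values that rested on 1 library stood out among coagulation genes. F5, coagulation factor V, had 22.5, 16.8 and 21.5 normalized counts in stroke and 25.9 in the shallower sham library, but 207 in the deeper. Its log2 fold change of -2.53 (SE 0.79, adjusted p = 0.0685) by the authors' deposited table did not pass. The 4 choroid plexus markers with recovered reads summed to 1076 in the deeper sham library, against 149 in the shallower and 146 to 208 in stroke, and their part in the F5 value was not tested. Ttr, the choroid plexus transthyretin gene, changed by -8.27 on the log2 scale (SE 1.80, adjusted p = 0.0015 by the authors' deposited table). Mmp3, a matrix protease, had 68.1 in stroke library C and 0 to 2.73 in the other libraries.

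Markers of cells that can carry these genes were measured beside them. Of 6 mural markers, Acta2 and Tagln were called higher and none lower. Among the uncalled, the log2 fold change was 1.17 (SE 0.35) for Myh11, 0.50 (SE 0.39) for Kcnj8, 0.27 (SE 0.36) for Rgs5 and 0.05 (SE 0.22) for Pdgfrb. The 5 recovered ones summed to 1838, 1842 and 1912 in stroke libraries A, B and C, against 1012 and 1348 in sham. That sum leaves out Rgs5, which had the highest mean of the list, 2673. The monocyte and macrophage sum also lay higher in all stroke libraries, as given above, and neither tested marker (Mrc1 and Lyz2) was called. The other markers, Ccr2, Ms4a7 and Ly6c2, had means of only 7.71, 4.71 and 0.876. The 5 recovered neutrophil markers summed to 57.3 to 99.9 in stroke, 92.1 in the deeper sham and 17.7 in the shallower. The 3 recovered microglia markers summed to 1092 to 1576 in stroke and to 1705 and 673 in sham. The part of these cells in the Plaur values was not tested.

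The gene closest to Plaur over the libraries was Ch25h, which encodes cholesterol 25-hydroxylase. Profiles of log2(normalized reads + 1), centred on each gene's mean, were compared by their largest difference in any of the 5 libraries, over 2807 genes with recovered reads, a mean of at least 20 and a symbol that is not that of a predicted gene (such as Gm or Rik). Ch25h differed from Plaur by at most 0.64 on that scale, with normalized counts of 67.4, 124 and 189 in stroke and 22.2 and 30.0 in sham. Rbm46, Rnf125, Psenen and Btg3 followed, with largest differences of 0.72, 0.79, 0.80 and 0.84. Of these 5 genes Ch25h was called (log2 fold change 2.29, SE 0.56, adjusted p = 0.0076 by the authors' deposited table) and the other 4 were not. Genes with higher means, most of which have no recovered reads, could not enter this comparison.

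**Figure D4:**
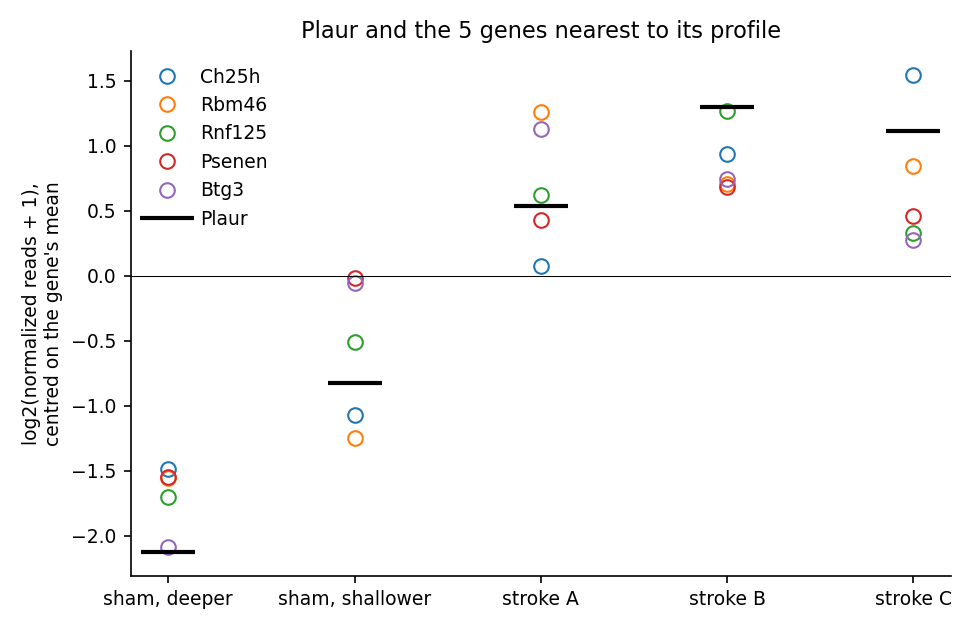
Log2(normalized reads + 1) in each library, centred on each gene's mean over the 5 libraries, for Plaur (black bars) and for the 5 genes with the smallest largest difference from it (circles). Ch25h, the nearest, lies within 0.64 of Plaur in every library.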

How the data were processed

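Libraries of 5 samples (2 sham, 3 stroke) were made with a stranded mRNA kit, per the labels' protocols. Per the submitters' processing notes the authors used STAR 2.5.2b, featureCounts 1.5.1, DESeq2 1.14.1, FastQC and build GRCm38. How strand and multiply aligned reads were counted is not stated in the sources used here. The authors' table lists, per the file headers and per gene, a mean signal (counts over size factors, averaged across libraries), the log2 fold change, its standard error, a Wald score, a p-value and an adjusted p-value. The score equalled fold change over standard error to within 1.31e-07.

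The deposited table holds means over libraries, so edgeR was not run and the authors' Wald test was used, called at an adjusted p of 0.05. Genes with 1 read took 5 values of the mean, 3 of them with a positive fold change, so a positive sign was taken to mean higher in stroke, which has 3 libraries. These values gave the size factors. Reads were then searched for with numba 0.67.0 in Python 3.11.15. Counts for the 5 libraries were kept only where a single set returned mean, fold change (within 2e-09) and standard error in an emulation of the negative binomial fit that the authors made with DESeq2. Of 6245 genes tried (tested genes with a mean under 150, and listed genes under 1100), 6227 were recovered. Of 500 genes with a mean up to 150, 0 were accepted when the mean was shifted on purpose, against 500 unshifted. Anxa2, Thbd, F3 and Plat have higher means than these. They were tried apart, with 20 shifted means each for Anxa2 and Thbd and 6 each for F3 and Plat. Other listed genes with a mean over 150, among them Slco1a4, Bdnf, Cdh5 and Pecam1, were not tried with shifted means, so their reads are less sure. On simulated reads 200 of 200 genes came out right, all with means below those of Thbd, F3 and Plat.

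Limma 3.58.1 (R 4.3.3) with trend and robust variance was an alternative. On simulated data for stroke against sham it found 51 of 200 changed genes among 6206, at 4-fold, with 7 false calls. Group differences used a pseudocount of 1. Gene positions and exon lengths come from GENCODE M21. The genes described and the lists were chosen with earlier results of these data known. Named were all 8 genes, called genes of the wider list, 9 genes fixed by name (1 of them not reported here), the 3 uncalled with the highest means, and the 5 nearest to Plaur. F5, Mmp3, Serpinb2, the fibrinogen genes, Itga5, Itgam, Itgb2, Cdh5, Pecam1, Avp, Hcrt and Hba-a1 were named after their values were seen.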

Additional observations from a re-analysis of the deposited data

How the results depend on the processing

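Only 1 of the 8 genes and 1 of the wider list were called, so each count rests on Plaur or Bdnf. Both calls held with adjustment over every gene with a p-value and with fold changes re-centred on the median of tested genes, -0.02. With a mean of at least 100, which leaves out Plaur and Plau, 0 of 6 were called and Bdnf kept its call. Against a fold of 1.5, 0 of the 8 and 0 of the wider list were called. With limma on recovered reads 0 of 6 and 0 of 39 were called. Over the genes that each setting covered, 272 calls became 150, 27 and 0 under these 3 settings. The first took only genes with a mean of at least 100, and limma only 6205 genes with recovered reads. In limma without each library in turn, chosen after seeing the data, 0 to 1 of the 6 and 0 to 6 of the 39 were called. Calls appeared there only without a sham library. The lone sham library is then assumed to vary like the stroke libraries, so these calls are no support. The cause was not tested. Adding 0.5 or 5 in place of 1, or size factors from recovered genes, gave Plaur a difference between 2.24 and 2.56 on the log2 scale. These size factors also moved Anxa2 from 0.04 to 0.14 and F3 from 0.05 to 0.15. Without 1 library the differences of Anxa2 and F3 took either sign, from -0.26 to 0.34 and from -0.18 to 0.28. Sham values of 12 and 24 reads limit the precision for Plaur. No paired analysis was possible because the recovered libraries carry no replicate numbers of the labels.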
